A study of Mus musculus with 4 samples.

Results

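The effect of 17β-estradiol (E2) on aortic gene expression was read as the mean of the response in disrupting peptide mice (DPM) and the response in wild-type (WT) mice, each response being the log2 level with E2 minus the log2 level with vehicle. DPM mice carry a transgene, driven by the CMV promoter, for residues 176 to 253 of estrogen receptor alpha, a peptide that occupies striatin and so prevents the receptor's rapid kinase signalling. The groups were DPM aorta with E2, DPM aorta with vehicle, WT aorta with E2 and WT aorta with vehicle. All mice were C57BL/6 females, 12 to 14 weeks old and ovariectomized 1 week before the aortas were taken, so the vehicle groups lacked ovarian hormone too. Aortas stayed ex vivo for 4 h with 10 nM E2 or with ethanol, and 4 aortas were pooled per sample. By the titles, an E2 group had 2 replicates and a vehicle group 3. The files hold a single level for each group, and the sources used here do not say if replicates were separate pools or repeat arrays. The recovered error for DPM was 1.33 times the one for WT, whereas equal numbers of equally weighted arrays would give equal errors. Whether array numbers or array weights differed between the genotypes cannot be told here. Of 12393 gene symbols on the Affymetrix mouse 430.A 2.0 array, 4711 had a log2 level of at least 5 in all 4 groups and were tested, each by the probe set whose mean level was highest.

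Estrogen receptor alpha acts as a transcription factor at DNA in the nucleus and also as a membrane-associated signalling protein. Striatin anchors a pool of the receptor near caveolin and G proteins, from where it activates kinases within minutes in endothelial cells. A response of the same direction in both genotypes is one seen with the peptide present as well as without it. Aorta holds smooth muscle, endothelium, adventitial fibroblasts and perivascular fat, so a level in whole tissue mixes these cells. Fewer cells of a type and less RNA per cell cannot be told apart in such samples.

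The transcripts of the receptors and of striatin were below the level required. Esr1 lay between 2.31 and 2.33 in the 4 groups, Esr2 at the array's lowest level of 2.29, and Strn between 3.09 and 3.33. Where probe sets lie relative to the transgene was not analysed here. Caveolin-1 (Cav1), the coat protein of caveolae, passed the filter and had an averaged E2 difference of -0.02 ± 0.096 (± gives the standard error throughout, derived from the differences and p-values the authors deposited). Nos3, the endothelial nitric oxide synthase, had one of 0.03 ± 0.16. The 95% interval of neither averaged difference leaves out 0. Both averages came from responses of opposite sign, at 0.11 in DPM and -0.15 in WT for Cav1 and -0.15 in DPM and 0.21 in WT for Nos3.

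Of the 4711 genes 3, or 0.0637%, passed an adjusted p of 0.05 for the averaged effect (a moderated test of limma's form on errors recovered from the deposited p-values, with Benjamini-Hochberg adjustment over all genes tested), and each rose with E2. None passed once each response was centred on its median, after quantile normalization of the group levels, or with the larger of the within-genotype p-values. Limd1, a LIM-domain scaffold of cell adhesions, stood at 8.59 with E2 and 8.01 with vehicle in DPM aorta, and at 8.50 with E2 and 8.04 with vehicle in WT aorta. Its averaged rise was 0.52 ± 0.046 (adjusted p = 0.0394), and its other probe set averaged 0.36. The E2 levels of Limd1 lay above the vehicle levels in either genotype, by 0.58 in DPM and 0.46 in WT. Mast2, a microtubule-associated kinase, stood at 7.72 with E2 and 7.39 with vehicle in DPM aorta, and at 8.29 with E2 and 7.44 with vehicle in WT aorta. Its averaged rise was 0.59 ± 0.057 (adjusted p = 0.0481). The responses of Mast2 were both upward, at 0.33 in DPM and 0.84 in WT. Their difference had an unadjusted p of 0.00323 and an adjusted p of 0.993.

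Siah1a, which encodes a ubiquitin ligase, was the third of these genes and was not a shared response. Its levels were 6.20 with E2 and 6.04 with vehicle in DPM aorta, and 6.04 with E2 and 6.04 with vehicle in WT aorta. Both WT levels were 6.03915, the same to all digits given, and the DPM vehicle level was 6.03512. The averaged rise of 0.08 ± 0.0065 (adjusted p = 0.0394) came from the 0.17 difference in DPM alone. Its standard error was far below the median over genes of 0.12, and its other probe sets averaged -0.02 and -0.11.

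At an unadjusted p under 0.05, 348 genes (7.39%) were called where 0.05 of 4711 genes is 236. Of these, 274 (5.82%) were higher and 74 (1.57%) lower with E2, so 78.7% of the calls were upward. That share was 50.8% when each response was centred on its median over genes and 56.5% after quantile normalization of the 4 groups. The median response over all genes was 0.08 in DPM and 0.01 in WT, and that of the average was 0.04. An averaged difference above 0 was seen in 2941 genes, 62.4%, and below 0 in 1770, 37.6%.

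The responses of both genotypes had the same sign in 2494 genes (52.9%), with 1670 (35.4%) higher and 824 (17.5%) lower with E2 in both. A log2 difference of at least 0.32 in each genotype, which is 25% higher or 20% lower, was reached by 88 genes upward (1.87%) and 26 downward (0.552%). At 1.5-fold in each, 11 genes were higher and 3 lower, which is 0.233% and 0.0637%. These genes were ranked by the smaller of their responses, so that ranking is a description and not a test. Just inside the upper bound lay Ube2e1 (0.33) and H2-Eb1 (0.32), and just outside it Igfbp6 (0.32) and Fos (0.31). On the lower side Mga and Scaf11 (each -0.33) lay inside, and Lif (-0.32) and Il6 (-0.31) outside. The median response of the 88 genes was 0.48 in DPM and 0.48 in WT, and that of the 26 genes was -0.45 in DPM and -0.42 in WT.

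**Figure D1:**
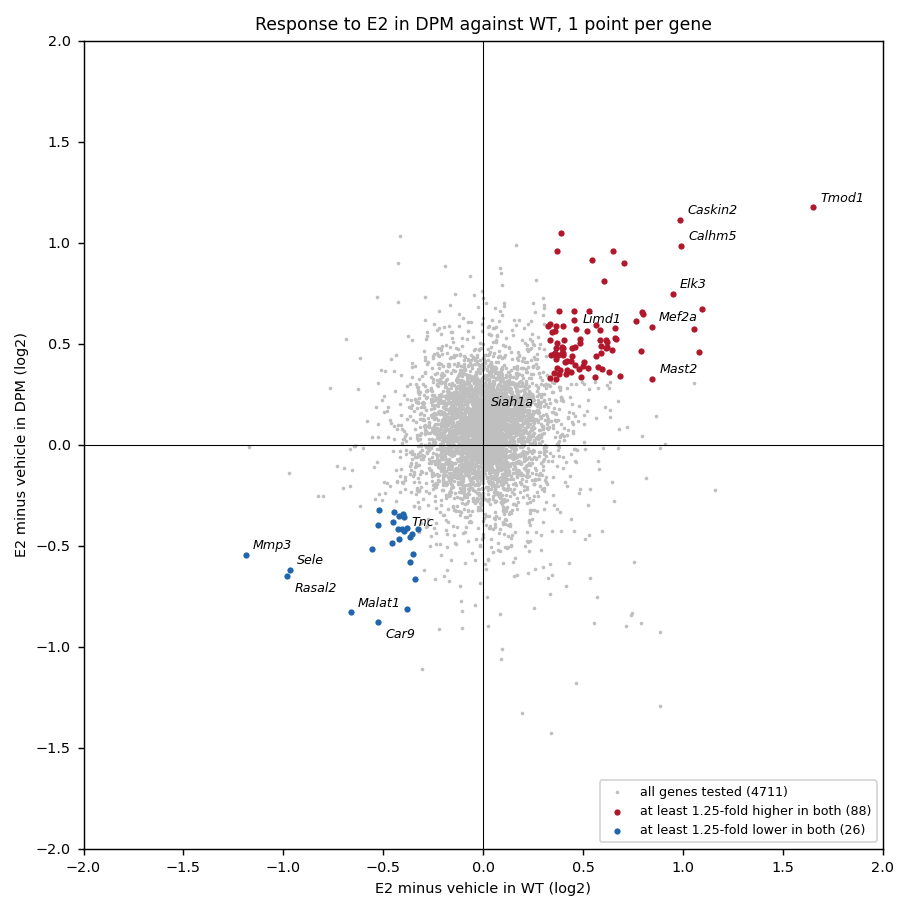
Response to E2 in DPM aorta (vertical axis, log2 E2 minus vehicle) against that in WT aorta (horizontal axis, same unit), with 1 point for each of the 4711 genes tested. Red points are the 88 genes at least 25% higher and blue points the 26 genes at least 20% lower in both genotypes; Tmod1 lies farthest into the upper right corner, while Siah1a lies on the line of no WT response.

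Tmod1, tropomodulin 1, which caps the slow-growing ends of actin filaments, led the upward ranking. Its level was 7.82 with E2 and 6.65 with vehicle in DPM aorta, and 7.94 with E2 and 6.29 with vehicle in WT aorta. Both E2 levels lay more than 1 log2 unit above both vehicle levels. The averaged difference was 1.41 ± 0.19, a 2.66-fold higher level with a 95% interval of 0.95 to 1.87 on the log2 scale, and its adjusted p over all genes was 0.124. Calhm5, a member of the calcium homeostasis modulator family of channels, followed at 7.01 with E2 and 6.03 with vehicle in DPM aorta, and 6.76 with E2 and 5.77 with vehicle in WT aorta. Its responses were almost equal, at 0.98 in DPM and 0.99 in WT, and the averaged difference was 0.99 ± 0.12 (adjusted p = 0.124). Caskin2, an ankyrin-repeat scaffold protein, had 6.50 with E2 and 5.39 with vehicle in DPM aorta, and 6.24 with E2 and 5.26 with vehicle in WT aorta. It averaged 1.05 ± 0.21 (adjusted p = 0.285).

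Transcription factor genes were among the leading ones. Elk3, an ETS-domain partner of serum response factor, had 6.43 with E2 and 5.69 with vehicle in DPM aorta, and 6.40 with E2 and 5.45 with vehicle in WT aorta. Elk3 averaged 0.85 ± 0.13 (adjusted p = 0.134), and a further probe set below the level filter averaged 0.51. Mef2a, a MADS-box factor of muscle and vessel, was highly expressed, at 11.31 with E2 and 10.73 with vehicle in DPM aorta, and 11.47 with E2 and 10.62 with vehicle in WT aorta. Its averaged difference was 0.71 ± 0.10 (adjusted p = 0.131), and 3 further probe sets averaged 0.76, 0.69 and 0.65. The remaining probe set of Mef2a, below the level filter, was lower with E2 in DPM and higher in WT. Lmo2, a LIM-only cofactor of endothelial and blood cell transcription complexes, had 5.81 with E2 and 5.19 with vehicle in DPM aorta, and 6.11 with E2 and 5.35 with vehicle in WT aorta. Lmo2 averaged 0.69 ± 0.10 (adjusted p = 0.131).

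Cytoskeletal and Ras-related genes stood next to them. Myo18a, an unconventional myosin, was 0.67 higher with E2 in DPM and 1.10 higher in WT. Frmd4b, a FERM-domain scaffold, was 0.90 and Rassf8, a Ras-association protein, 0.58 higher in DPM, against 0.70 and 0.66 in WT. The averaged differences of these genes ran between 0.62 for Rassf8 and 0.88 for Myo18a, with adjusted p of 0.198 to 0.608.

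Immune-related and enzyme genes were also among the leading 15. Tnfsf9, the ligand of a T-cell costimulatory receptor, was 0.66 higher with E2 in DPM and 0.79 higher in WT. Serpinb9, an intracellular inhibitor of granzyme B, was 0.65 higher in DPM and 0.80 higher in WT, and its relative Serpinb6b 0.96 higher in DPM and 0.65 higher in WT. Eva1a, a regulator of autophagy, was 0.81 higher in DPM and 0.60 higher in WT. Tiparp, an ADP-ribosyltransferase that restrains the aryl hydrocarbon receptor, had 9.20 with E2 and 8.63 with vehicle in DPM aorta, and 9.59 with E2 and 8.54 with vehicle in WT aorta. Its averaged difference was 0.82 ± 0.24 (adjusted p = 0.535), and its further probe sets averaged 0.68 and 0.54.

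**Figure D2:**
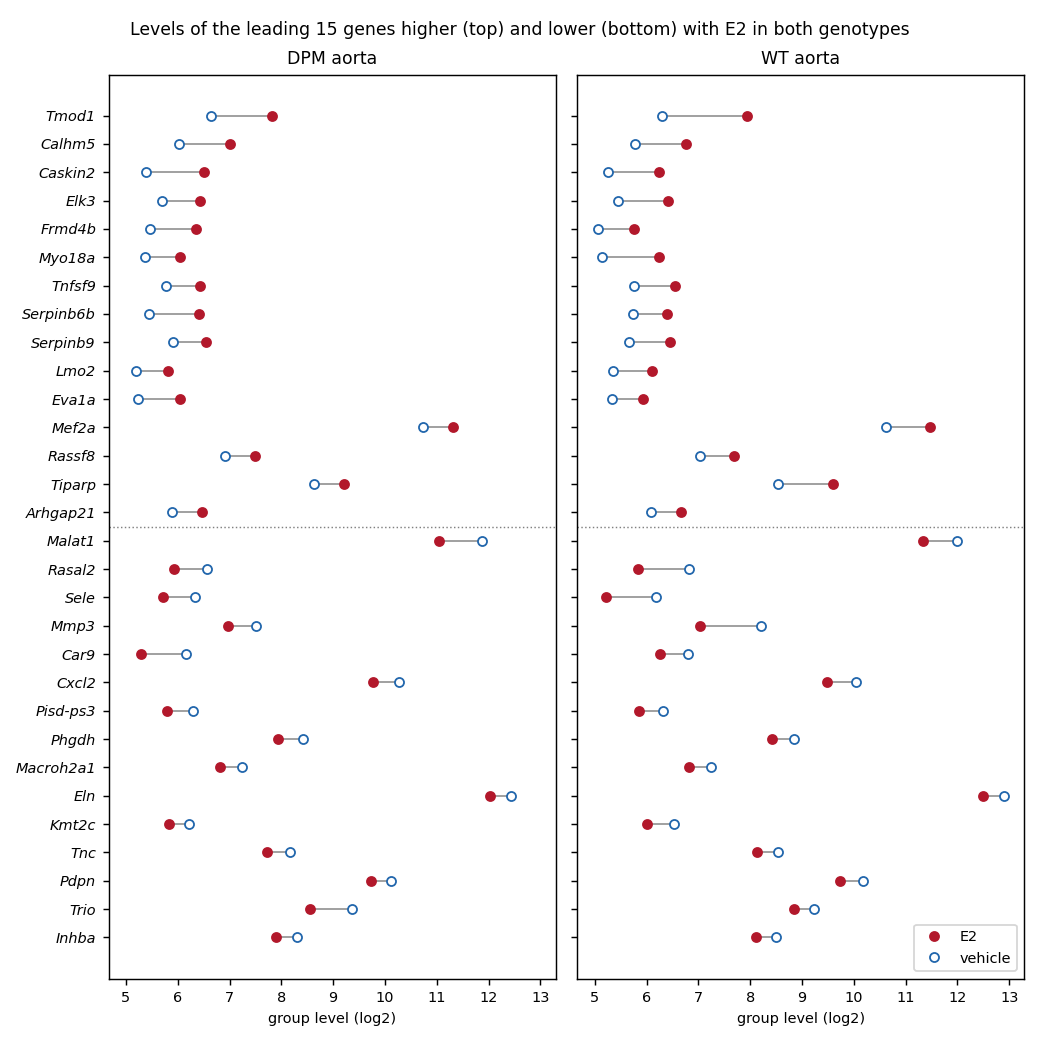
Group levels (log2, horizontal axis) of the leading 15 genes upward and, below the dotted line, the leading 15 downward, in DPM aorta on the left and WT aorta on the right. Filled red points are E2 and open blue points vehicle; with 1 level per group no error is drawn, and by the ranking's construction every E2 point lies on the same side of its vehicle point in both panels.

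Malat1, a nuclear long noncoding RNA, led the downward ranking. Its level was 11.04 with E2 and 11.86 with vehicle in DPM aorta, and 11.33 with E2 and 12.00 with vehicle in WT aorta. The averaged difference was -0.75 ± 0.24 (adjusted p = 0.546), and its 4 further probe sets averaged between -1.07 and -0.40. All 5 probe sets of Malat1 were lower with E2 in both genotypes. Rasal2, which switches off Ras, had 5.92 with E2 and 6.57 with vehicle in DPM aorta, and 5.83 with E2 and 6.81 with vehicle in WT aorta. Rasal2 averaged -0.81 ± 0.12 (adjusted p = 0.132).

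Adhesion, chemokine and protease genes came next. Sele, E-selectin, the endothelial receptor on which leukocytes roll, had 5.71 with E2 and 6.33 with vehicle in DPM aorta, and 5.21 with E2 and 6.17 with vehicle in WT aorta. Its averaged difference was -0.79 ± 0.21 (adjusted p = 0.485). Mmp3, the matrix protease stromelysin, had 6.97 with E2 and 7.52 with vehicle in DPM aorta, and 7.03 with E2 and 8.22 with vehicle in WT aorta. Mmp3 averaged -0.87 ± 0.25 (adjusted p = 0.535), and its E2 levels lay closer together than its vehicle levels. Cxcl2, a neutrophil chemokine, had 9.76 with E2 and 10.28 with vehicle in DPM aorta, and 9.48 with E2 and 10.03 with vehicle in WT aorta. Cxcl2 averaged -0.54 ± 0.16 (adjusted p = 0.542), with both E2 levels under both vehicle levels.

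The windows before the transcription start of the 4 leading genes in each direction were searched for known motifs. They span 250 bases before to 50 after the start (RefSeq, GRCm38.p6), and 7 of the 8 genes had one, all but Caskin2. The windows of Sele and Mmp3 are printed because they alone among the 7 held an AP-1 site, TGANTCA, drawn in capitals, and that of Tmod1 because it led the upward genes and held none. Each runs 5′ to 3′ on the gene's own strand: Sele on the plus strand at chr1:164047984-164048283, Mmp3 on the plus strand at chr9:7445572-7445871 and Tmod1 on the plus strand at chr4:46038972-46039271.
Sele: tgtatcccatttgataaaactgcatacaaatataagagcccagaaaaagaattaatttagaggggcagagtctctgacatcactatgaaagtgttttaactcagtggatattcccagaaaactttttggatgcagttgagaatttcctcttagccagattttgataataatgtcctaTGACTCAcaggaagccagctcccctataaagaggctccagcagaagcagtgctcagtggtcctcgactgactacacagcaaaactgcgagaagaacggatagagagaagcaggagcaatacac
Mmp3: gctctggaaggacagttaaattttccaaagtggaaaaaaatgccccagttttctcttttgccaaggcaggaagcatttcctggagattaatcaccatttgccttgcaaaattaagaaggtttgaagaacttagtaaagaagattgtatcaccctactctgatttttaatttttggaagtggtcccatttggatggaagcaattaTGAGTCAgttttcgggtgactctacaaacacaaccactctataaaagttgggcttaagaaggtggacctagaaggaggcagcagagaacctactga
Tmod1: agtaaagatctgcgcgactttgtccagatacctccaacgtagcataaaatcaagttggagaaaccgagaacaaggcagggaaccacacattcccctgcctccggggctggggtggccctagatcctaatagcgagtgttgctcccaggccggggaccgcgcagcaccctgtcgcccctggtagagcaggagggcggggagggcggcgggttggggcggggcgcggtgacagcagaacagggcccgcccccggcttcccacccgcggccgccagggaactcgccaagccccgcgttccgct

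The match in Sele lies at -73 to -67 from the start and that in Mmp3 at -46 to -40. TGANTCA reads the same on both strands, so each match counts as 1 site. AP-1 letters were found in 17.4% of the 23 downward genes with a window and 9.72% of the 72 upward genes with one. The share was 6.61% of the 3843 tested genes with a window and 8.97% of all 27025 genes with one. The palindromic estrogen response element, with both arms in full, was in 0 of the 3843 tested genes with a window and in 0.074% of all genes with one. The hexamer AGGTCA, on either strand, was in 13.0% of the downward and 13.9% of the upward genes, beside 14.4% of tested genes. A CArG box, the motif of serum response factor, was in 4.35% of the downward and 0% of the upward genes, beside 2.00% of tested genes. A match in these windows is a description of the letters and not of binding.

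Other downward genes belonged to hypoxia, matrix and chromatin. Car9, a carbonic anhydrase induced by low oxygen, had 5.29 with E2 and 6.16 with vehicle in DPM aorta, and 6.27 with E2 and 6.79 with vehicle in WT aorta. Car9 averaged -0.70 ± 0.15 (adjusted p = 0.330). Tnc, the matricellular protein tenascin C, had 7.73 with E2 and 8.16 with vehicle in DPM aorta, and 8.14 with E2 and 8.54 with vehicle in WT aorta. Its responses were nearly equal, and its error was small, for an averaged difference of -0.41 ± 0.057 (adjusted p = 0.124). Eln, elastin, averaged -0.41 ± 0.36 (adjusted p = 0.876), and its 95% interval held 0. A lower-level probe set of Eln differed by -2.20 in DPM and 0.01 in WT.

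Pdpn, the mucin-like membrane protein podoplanin, differed by -0.38 in DPM and -0.45 in WT. Inhba, a subunit of activin, differed by -0.42 in DPM and -0.38 in WT. Among chromatin and enzyme genes, the histone variant gene Macroh2a1 averaged -0.42 ± 0.17, the histone methyltransferase gene Kmt2c -0.46 ± 0.14 and Phgdh, the entry enzyme of serine synthesis, -0.45 ± 0.31. The averages of the remaining Phgdh probe sets were -0.42, -0.14 and -0.08, and the one at -0.14 differed by 0.07 in DPM and -0.35 in WT. Pisd-ps3, at -0.47 ± 0.20, is named as a pseudogene of Pisd, and its probe set may share signal with that gene. Another probe set of Pisd-ps3 differed by -0.28 in DPM and 0.02 in WT. The adjusted p of these 6 genes lay between 0.535 and 0.846.

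**Figure D3:**
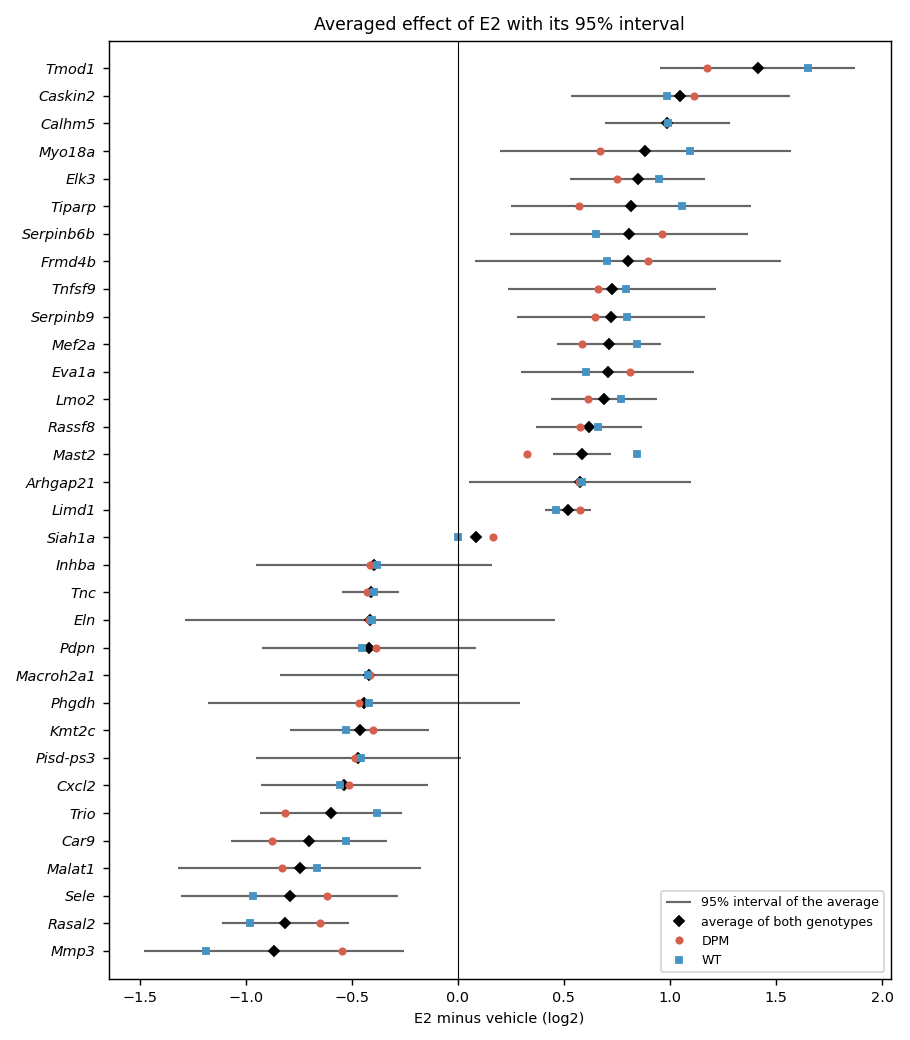
Averaged E2 minus vehicle difference (log2, black diamond) with its 95% interval (grey line) for the leading 30 genes and the 3 genes past the adjusted threshold; red points are the DPM and blue squares the WT response. Intervals of Limd1, Mast2 and Siah1a are among the narrowest, and those of Eln, Phgdh, Inhba, Pdpn and Pisd-ps3 cross 0.

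The difference between the genotypes' responses had an unadjusted p under 0.05 in 1 of the 88 upward genes, Mast2, and in 0 of the 26 downward genes, against 4.01% of all genes, and an adjusted p under 0.05 in 0 of either, against 0.0212% (the authors' deposited p, adjusted over all genes). The ranking favours genes with like responses, so this low count is in part fixed by it, and it does not show equal responses. For Tmod1 the DPM response minus the WT response was -0.48 with a 95% interval of -1.40 to 0.44, and for Calhm5 it was -0.01 with an interval of -0.59 to 0.58. The WT response was the larger in 46 and the DPM response in 42 of the 88 genes, beside 1943 and 2768 of all genes. A second probe set passed the level filter for 27 of the 88 genes, and 26 of these averaged in the same direction, against 71.7% of second probe sets of all genes with a higher average. The direction was the same in both genotypes for 23 of the 27, against 42.8%. For the 26 downward genes it was 9 of 10 for the average, against 61.7%, and 6 of 10 in both genotypes, against 32.1%. Second probe sets read the same arrays, so they are no further replicate. The shares over all genes include genes with averages near 0, so the higher shares are in part fixed by the choice of genes.

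The unadjusted p was under 0.05 in each genotype for 39 genes upward (0.828%), 6 downward (0.127%) and 9 in opposite directions (0.191%). The 6 downward genes were Csnk2a1, Zeb1, Il6, Tnc, Car9 and Rasal2. Ackr3, a scavenging chemokine receptor, Foxo1, a transcription factor restrained by Akt, and Zfp36l1, a protein that shortens the life of AU-rich mRNAs, were picked from the 39 after their values were seen. Ackr3 averaged 0.32 ± 0.043, Foxo1 0.43 ± 0.063 and Zfp36l1 0.44 ± 0.066, with adjusted p of 0.124 to 0.131. Il6, the cytokine interleukin-6, averaged -0.35 ± 0.048 from a high level, 12.29 with E2 and 12.68 with vehicle in DPM aorta, and 12.20 with E2 and 12.52 with vehicle in WT aorta. Zeb1, a zinc-finger repressor, averaged -0.32 ± 0.041, and both Il6 and Zeb1 had an adjusted p of 0.124.

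Across all 4711 genes the responses of the genotypes were weakly related, with r = 0.12. Over the 2323 genes at mean levels of 5 to 7, r was 0.02, over the 1622 at 7 to 9 it was 0.22 and over the 766 at 9 to 16 it was 0.33. This is a description across genes, which share the same arrays within a group and are not independent replicates. The genes were also chosen in one genotype and read in the other, which uses separate groups. Of the 58 genes at least 1.5-fold higher in WT (1.23% of genes tested), 43 were higher with E2 in DPM, 74.1% beside 66.2% of all genes, with a median DPM response of 0.33. Of the 22 at least 1.5-fold lower in WT (0.467%), 18 were lower in DPM, 81.8% beside 33.8%, with a median DPM response of -0.12. Chosen instead by an unadjusted p under 0.05, 54 of 116 genes lower in WT were lower in DPM, 46.6% beside 33.8%, with a median DPM response of 0.02. Of 195 genes higher in WT, 159 were higher in DPM, 81.5% beside 66.2%. Against the median DPM response of all genes, 0.08, 78 of the 116 (67.2%) lay lower and 133 of the 195 (68.2%) higher. Of the 73 at least 1.5-fold higher in DPM (1.55%), 50 were higher in WT, 68.5% beside 51.8%. Of the 52 at least 1.5-fold lower in DPM (1.10%), 20 were lower in WT, 38.5% beside 48.2%, with a median WT response of 0.09. Chosen by an unadjusted p under 0.05, 27 of 38 genes lower in DPM were also lower in WT, 71.1%, and a median WT response of -0.09, while 118 of 191 genes higher in DPM were higher in WT, 61.8%. The share of downward genes kept thus depended on whether they were chosen by fold or by p. For genes chosen by p in WT, it also depended on whether DPM responses were read by sign or against their median.

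Counts for the gene lists are read against all genes tested, of which 62.4% averaged higher, 37.6% averaged lower, 35.4% were higher in both genotypes and 17.5% lower in both. Of 37 tested members of the immediate early and kinase-responsive list, 27 averaged higher, and 20 were higher and 6 lower in both genotypes. The list's median response was 0.04 in DPM, where that of all genes was 0.08, and 0.19 in WT, where that of all genes was 0.01. Of these members 6 had an unadjusted p under 0.05, all higher (background 5.82%), and none passed the adjusted threshold. Fosb, an AP-1 subunit, had 9.67 with E2 and 9.36 with vehicle in DPM aorta, and 9.74 with E2 and 8.69 with vehicle in WT aorta. Its average was 0.68 ± 0.20. Klf2, a flow-induced endothelial factor, averaged 0.51 ± 0.15 and Atf3, a stress-induced factor, 0.50 ± 0.18. Their responses were 0.34 and 0.36 in DPM, against 0.68 and 0.63 in WT. In the list of receptor, striatin and rapid signalling components, 14 of 24 averaged higher, a share near that of all genes, with a median of 0.04. Rras2, a Ras-family G protein, averaged 0.47 ± 0.094, with 0.70 in DPM and 0.25 in WT. Map2k1, the kinase MEK1, averaged 0.44 ± 0.10, with 0.48 in DPM and 0.39 in WT.

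Classic estrogen targets went both ways. Of 20 tested, 13 averaged higher and 7 lower, shares near the 62.4% and 37.6% of all genes. Their median was 0.08, beside 0.04 for all genes. At an unadjusted p under 0.05 for the average, Efemp1 and Errfi1 were higher and Fhl2 and Cited2 lower. The background was 5.82% higher and 1.57% lower. Efemp1, a matrix glycoprotein gene, was 0.96 higher in DPM and 0.37 higher in WT, for an average of 0.66 ± 0.25. Fhl2, a LIM-domain cofactor, averaged -0.39 ± 0.13 and Cited2, a cofactor of CBP and p300, -0.27 ± 0.11. All 3 tested members of the aryl hydrocarbon receptor list, Tiparp, Ahr and Cyp1b1, were higher with E2 in both genotypes, with averages of 0.82, 0.24 and 0.37, and only Tiparp had an unadjusted p under 0.05.

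Inflammatory cytokine and adhesion genes were averaged downward. Of 27 tested, 21 averaged lower, 17 were lower and 2 higher in both genotypes, beside 17.5% and 35.4% of all genes, and the list's median was -0.20. On the lower side 7 had an unadjusted p under 0.05 (background 1.57%), namely Sele, Cxcl2, Cxcl5, Lif, Ccl2, Il6 and Il1r1, and 2 on the higher side, the cytokine receptor genes Il17ra and Il4ra. Cxcl5, a neutrophil chemokine, averaged -0.53 ± 0.17, with -0.25 in DPM and -0.80 in WT. The monocyte chemokine gene Ccl2 averaged -0.36 ± 0.12. Il17ra averaged 0.54 ± 0.095, with 0.81 in DPM and 0.26 in WT. None of the 27 passed the adjusted threshold. Macrophage and leukocyte markers did not share that direction: 9 of 11 tested averaged higher, with a median of 0.28, while the median over all 24 on the array, below the level filter or not, was 0.09. The summed linear level of the 24 was 1526 with E2 and 1297 with vehicle in DPM aorta, and 1129 with E2 and 1070 with vehicle in WT aorta. Their part in the cytokine values was not tested.

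Matrix genes were lower in 26 of 37 tested and hypoxia and glycolysis genes in 15 of 24, with medians of -0.05 each, beside 37.6% averaging lower among all genes. In both genotypes 18 matrix genes were lower and 8 higher, and 10 hypoxia genes lower and 4 higher, beside 17.5% lower and 35.4% higher among all genes. Timp1, an inhibitor of matrix proteases, averaged -0.54 ± 0.20, with -0.25 in DPM and -0.83 in WT. Thbs2, the matricellular protein thrombospondin 2, averaged 0.33 ± 0.086. Prg4, the lubricating proteoglycan, averaged -0.59 ± 0.19, with -0.01 in DPM and -1.17 in WT. Ero1a, an oxidase of protein folding induced by hypoxia, averaged -0.38 ± 0.12. On the lower side 4 members of either list had an unadjusted p under 0.05, beside 1.57% of all genes.

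Smooth muscle contractile genes averaged lower in 15 of 21 tested, beside 37.6% of all genes, with a list median averaged difference among tested genes of -0.05. In both genotypes 8 were lower and 3 higher, beside 17.5% and 35.4% of all genes. At an unadjusted p under 0.05 for the average, 2 were lower and 1 higher, beside 1.57% and 5.82%. Smtn, smoothelin, averaged -0.28 ± 0.096, the light chain gene Myl6 -0.38 ± 0.16 and Mrvi1, a partner of cGMP-dependent kinase, 0.31 ± 0.11. Of 25 actin filament and membrane linkage genes 13 averaged higher and 12 lower, so the Tmod1 value stood apart from a list median of 0.00. Ezr, ezrin, which ties actin to the membrane, averaged 0.44 ± 0.12, with 0.79 in DPM and 0.09 in WT. The array's beta-actin control probe sets were lower with E2 in both genotypes, by averages of -0.31 (3′ end), -0.49 (middle) and -0.49 (5′ end), with unadjusted p of 0.161, 0.117 and 0.0890. The Gapdh control probe sets differed by 0.10 (3′ end), -0.64 (middle) and -1.21 (5′ end) in DPM, against -0.03, 0.28 and 0.54 in WT. The part of RNA quality in the actin and muscle values, and in the opposite responses of other lists, was not tested.

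Of 27 TGF-beta and BMP genes tested 17 averaged higher, with a median of 0.11, beside 62.4% and 0.04 for all genes. Tgfb2, a TGF-beta ligand, averaged 0.54 ± 0.16, with further probe sets at 0.74 and 0.49, and Id2, a BMP-induced inhibitor of helix-loop-helix factors, 0.50 ± 0.20. In the Wnt list 11 of 14 averaged higher, with a median of 0.09. Frzb, a secreted Wnt inhibitor, was 0.56 higher in DPM and 0.52 higher in WT (average 0.54 ± 0.11, adjusted p = 0.267). The Notch target Heyl averaged 0.52 ± 0.21, and 4 of 7 Notch genes averaged higher. Among heat shock and endoplasmic reticulum genes 14 of 29 averaged higher, including the small heat shock protein gene Cryab at 0.48 ± 0.12 and the cochaperone gene Dnajb4 at 0.59 ± 0.22. Circadian clock genes averaged higher in 9 of 13 and peroxisome and iron-sulfur genes in 11 of 12, and 5 genes of each list were higher in both genotypes. The responses had opposite signs in 8 of the 13 and 7 of the 12, beside 2217 of 4711 genes. The median response of the peroxisome and iron-sulfur genes was 0.18 in DPM and -0.01 in WT, and that of the circadian clock genes 0.04 and 0.08.

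**Figure D4:**
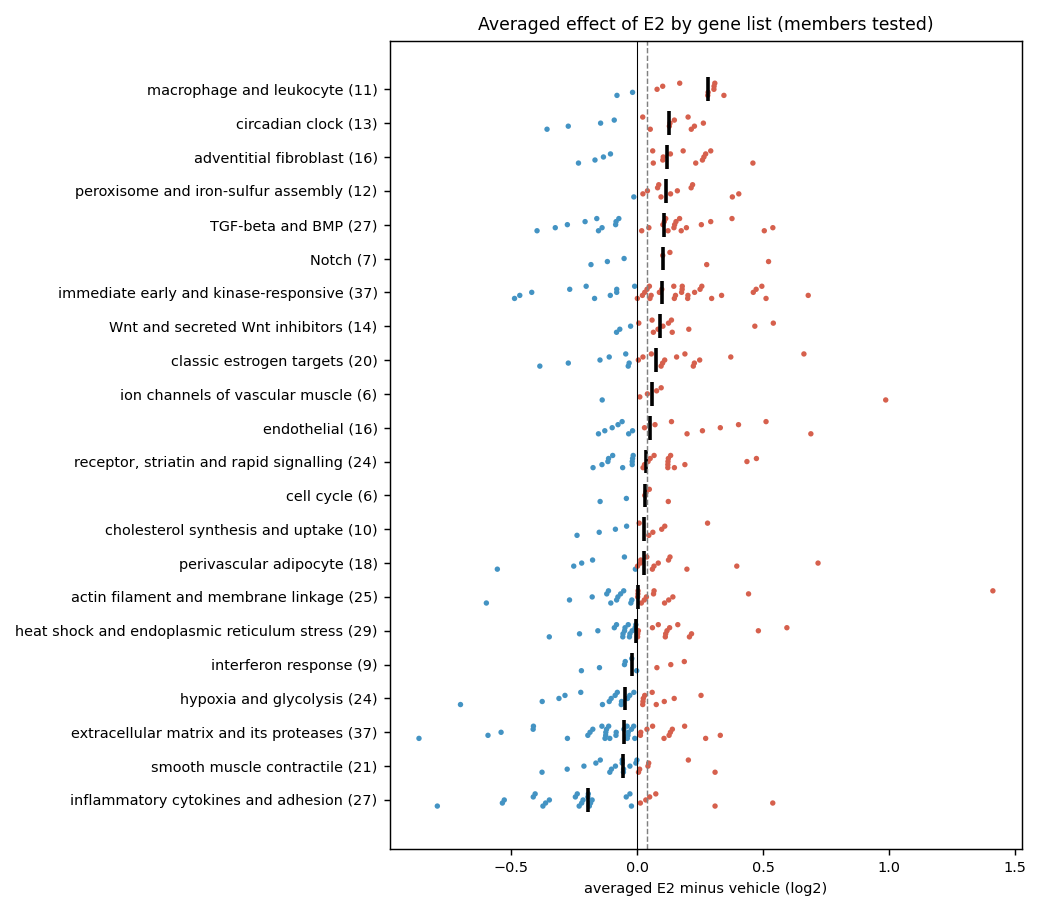
Averaged E2 minus vehicle difference (log2) of each tested gene by list, for lists with at least 6 tested genes; red points lie above and blue points below 0, the black bar is the list's median, the dashed line the median of all genes at 0.04, and the number tested stands in brackets. Inflammatory cytokine and adhesion genes have the lowest median, -0.20, and the 11 macrophage and leukocyte markers tested the highest, 0.28.

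In several lists the average hid opposite responses. All 9 tested interferon response genes differed in opposite directions, with a median response of -0.34 in DPM and 0.34 in WT. Ifit3, an antiviral protein gene, differed by -0.93 in DPM and 0.88 in WT, and Rsad2, which encodes viperin, by -0.88 in DPM and 0.79 in WT. The difference between genotypes had an unadjusted p of 0.00795 for Ifit3 and 0.00411 for Rsad2, and an adjusted p of 0.993 for each. The averages were -0.02 for Ifit3 and -0.05 for Rsad2. Opposite signs were also found in 8 of 10 cholesterol genes, 10 of 16 endothelial genes and 12 of 18 adipocyte genes, beside 2217 of 4711 genes in all. The endothelial markers had a median response of -0.13 in DPM and 0.29 in WT, and their summed linear level was 2039 with E2 and 2232 with vehicle in DPM aorta, and 2506 with E2 and 2013 with vehicle in WT aorta. For the averaged effect, 4 of the 16 endothelial genes had an unadjusted p under 0.05, all higher, beside 5.82% of all genes. They were Lmo2, Klf2, Icam2 and Tek, and of these Lmo2, Klf2 and Tek were higher in both genotypes. Within DPM the authors' unadjusted p was 0.00899 for Lmo2, 0.212 for Klf2 and 0.480 for Tek. The part of endothelial content in these genes was not tested.

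Markers of other cells and the hybridization controls also differed between groups. Smooth muscle markers had the highest levels of the cell type lists, with a median log2 level of 10.4 to 10.9 in the 4 groups. Of 19 cardiac and skeletal muscle markers none passed the level filter in all 4 groups, and their summed linear level was 187 with E2 and 1159 with vehicle in DPM aorta, and 157 with E2 and 171 with vehicle in WT aorta. Of 18 hybridization control probe sets, all 18 were lower with E2 in DPM, with a median of -0.47, and 6 of 18 were lower in WT, with a median of 0.02. Adventitial fibroblast markers averaged higher in 12 of 16, with a median of 0.12, and Pdgfra, a fibroblast receptor gene among the 88, averaged 0.46 ± 0.22.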

How the data were processed

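RNA from DPM and WT aortas with E2 or vehicle was measured on Affymetrix mouse 430.A 2.0 arrays; GCRMA and limma are named in the submitters' processing notes without version or role. The authors deposited 1 log2 level per group and probe set (lowest 2.29, highest 15.27), with log2 differences for DPM, WT and DPM minus WT, and an unadjusted p-value for each, per the file headers. The deposited differences equalled those of the levels within 6e-08. No spread between arrays was read directly, so each standard error was recovered from the deposited difference and p-value. The errors of the 3 contrasts keep 1 ratio at 6.44 degrees of freedom (2033 probe sets); there the squared errors of both responses add up to that of their difference (ratio 0.99996 to 1.00), so the error of the average is that of the difference divided by 2, or 0.832 times the WT error. The DPM error was 1.33 times the WT error. Replicates may be technical, and p-values then measure only the spread between these arrays, whose number limits the precision: the median gene needed 1.23-fold for an unadjusted p of 0.05.

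Symbols followed the array annotation, updated with RefSeq (GRCm38.p6): 20393 probe sets had 1 symbol, 691 several and 1606 none, and the last 2 kinds were left out. The averaged effect was tested by a moderated t of limma's form, computed from the recovered errors and degrees of freedom without refitting arrays, with Benjamini-Hochberg adjustment over 4711 genes, and the derivation was tested on simulated data. Gene lists are given by counts and medians with no set test. Named genes are the leading 15 in each direction by the smaller response, those with an adjusted p under 0.05, up to 4 members per list with the same sign in both genotypes and the largest average, and Esr1, Esr2, Strn, Cav1 and Nos3. Chosen after seeing their values were other members called without adjustment, genes called so in each genotype, and the opposite responders. The members and the 27 lists were chosen with earlier results of these data known. Alternatives varied the scaling, the level filter, the choice of probe set, the weighting, the degrees of freedom and the fold. Python 3.11.15, numpy 2.4.6, pandas 2.3.3 and scipy 1.17.1 were used. Among the leading 30 genes, 2 are plotted but not described in the text.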

Additional observations from a re-analysis of the deposited data

Results flagged for a closer look

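Siah1a had a DPM response minus WT response of 0.17. It was the only gene of 4711 with an adjusted p under 0.05 for that difference (authors' deposited p, Benjamini-Hochberg adjustment over all genes). The call rests on a recovered standard error of 0.013, and both WT levels of Siah1a were 6.03915. The response was 0.17 in DPM and 0.00 in WT, and its other probe sets averaged -0.02 and -0.11.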

How the results depend on the processing

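The 3 genes past the adjusted threshold became 0 when the larger within-genotype p was used, when responses were centred on their medians, after quantile normalization or with no level filter, and 6 over every probe set. Limd1 and Mast2 kept their direction throughout, while the averaged E2 effect of Siah1a was -0.0051 as a median over its probe sets. Genes higher at an unadjusted p under 0.05 numbered 274, and lower 74. They numbered 39 and 6 with the larger p, 150 and 145 after centring, 173 and 133 after quantile normalization, 151 and 43 at a level of at least 7, and 416 and 129 with no filter. The 88 upward and 26 downward genes moved alike became 38 and 14 at a level of at least 7, 143 and 52 with no filter, and 11 and 3 at 1.5-fold. The 26 became 40 after centring and 40 when a level of 5 was needed in only 1 group. Of the 88, 67 remained after centring, 73 after quantile normalization and 58 with medians over probe sets. All 26 downward genes remained after centring and after quantile normalization, and 17 with medians over probe sets. Fewer or more genes tested and the scale shift follow from how these alternatives are built; the cause of other shifts was not tested. No paired analysis was possible because the files give 1 level per group, and for the same reason no replicate could be left out.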
